A study of Mus musculus with 3 samples.

Results

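The genes described here are 8 sterol genes driven by SREBP2, the transcription factor that switches on cholesterol synthesis: Hmgcs1, Idi1, Fdps, Fdft1, Sqle, Lss, Cyp51 and Insig1. They were chosen by name, as the 10 probes whose gene name in the array files equals one of these symbols, of 39429 probes on the array. The choice was made with earlier results of these data known. All 10 probes passed the filter on dim signals, and all 8 genes were measured. RNA came from the hippocampus of male mice killed at postnatal day 120 by cervical dislocation. Their mothers were either 15 to 18 months old (older) or 3 months old (young) at breeding, and the fathers of both groups were 3 months old. The labels name no strain, no genetic change and no drug. RNA of 3 males was pooled for every sample, giving 3 pools per group. On all 3 arrays, which share 1 slide, the dye Cy3 marked the older-mother pool and Cy5 the young-mother one. With this 1 dye orientation, dye and group cannot be told apart in any ratio given here. Whether pools share litters is not stated, so p-values measure the spread between these pools.

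Cells make cholesterol from acetyl-CoA through mevalonate, isoprenoid units, squalene and lanosterol. When sterols in the endoplasmic reticulum run low, SCAP carries SREBP2 to the Golgi, where it is cut by the proteases encoded by Mbtps1 and Mbtps2. The freed part binds sterol regulatory elements in the promoters of the enzymes of the pathway. INSIG proteins hold SCAP back when sterols are plentiful, and oxysterols strengthen that hold. The adult brain makes its own cholesterol behind the blood-brain barrier, largely in astrocytes and in oligodendrocytes, and neurons remove the excess through CYP46A1.

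On the arrays, the median Cy3 signal over background ran from 58.0 to 62.3 intensity units and the median Cy5 signal from 153 to 165, and 0 spots were saturated. The number of arrays limits the precision. All 7 markers of hippocampal neurons were measured above background (Prox1, Wfs1, Zbtb20, Neurod6, Spink8, Fibcd1 and Dsp). Markers of tissue next to the hippocampus moved with the groups. For comparison, 7.34% of all genes were called higher and 12.2% lower by the test described below. The ratio was below 0 on all 3 arrays for 36.3% of all genes. The 8 choroid plexus markers were below 0 on all 3 arrays (0 rose and 2 fell by the test, array medians -0.90, -2.19 and -0.41), and their log2 summed signal ran from 13.17 to 16.06 in the older-mother pools and from 16.26 to 16.81 in the young-mother pools. Of 7 leptomeningeal fibroblast markers 4 fell, with array medians of -0.51, -0.59 and -0.26 and log2 summed signals from 12.50 to 13.19 (older) and from 12.91 to 13.21 (young). None of these markers was at background in any pool, and their part in the ratios of the cholesterol genes was not tested. In bulk RNA, fewer cells of a type and less RNA per cell cannot be told apart.

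Among the 8 genes, Idi1 and Cyp51 were higher in the offspring of older mothers, and the other 6 did not pass the test. Each ratio is the log2 of the Cy3 over the Cy5 signal on an array, and the test was limma's moderated test with Benjamini-Hochberg adjustment over all probes, called at an adjusted p under 0.05, two-sided. Confidence intervals came from the same moderated fit, which shares variance between probes, and not from the printed SD alone. Of all 17965 genes measured, 7.34% were called higher and 12.2% lower. So 2 of 8 members were higher and 0 lower, beside that background. Because earlier results of these data were known when the members were chosen, counts set beside shares of all genes only describe them. The median of the 8 means was 0.14 on the log2 scale, with array medians of 0.08, 0.13 and 0.17, and the median of all genes was -0.03 on each array. The ratio was above 0 on all 3 arrays for 5 members (24.3% of all genes) and below 0 on all 3 for 0 members (36.3% of all genes).

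**Figure D1:**
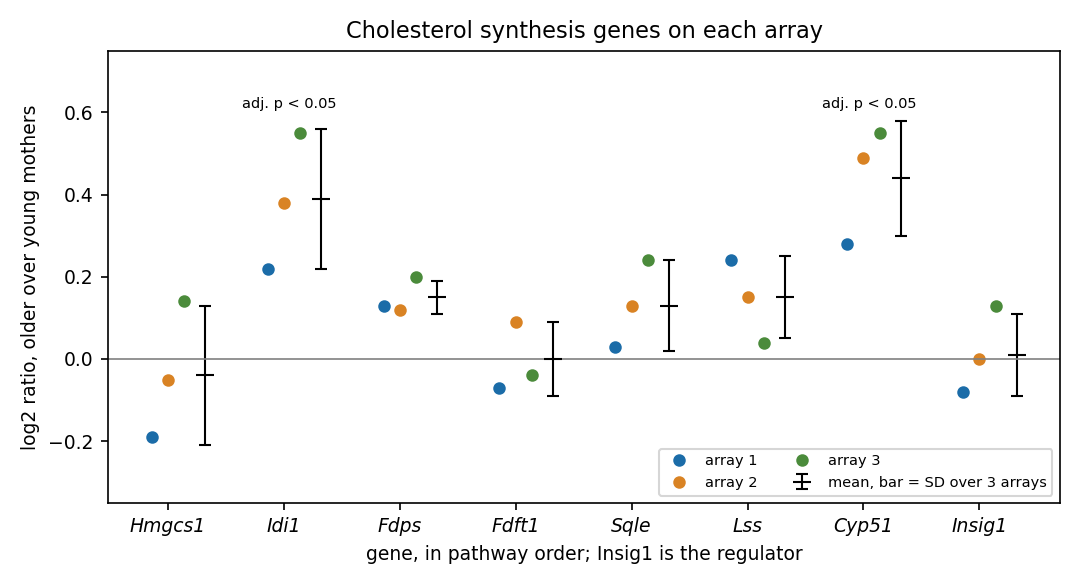
The vertical axis is the log2 ratio (older over young) for the brightest probe of each gene. Coloured points are the 3 arrays, and the black mark and bar are their mean and SD. Idi1 and Cyp51 lie above 0.2 on every array, and Hmgcs1, Fdft1 and Insig1 lie on both sides of 0.

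Cyp51 encodes lanosterol 14-alpha demethylase, the first enzyme after lanosterol. Its log2 ratios were 0.28, 0.49 and 0.55 on arrays 1, 2 and 3. The older-mother pool was the higher one on all 3 arrays. The mean was 0.44 ± 0.14 (SD, n = 3), a 1.36-fold difference, with a 95% confidence interval from 0.28 to 0.60 and a limma adjusted p = 0.0195. As separate normalized log2 signals, the older-mother pools were at 8.27, 8.30 and 8.28 and the young-mother pools at 7.99, 7.81 and 7.73. The groups did not overlap, and the young-mother pools spread over 0.26 against 0.02 for the older-mother pools. Idi1 encodes isopentenyl-diphosphate isomerase, which interconverts the isoprenoid building blocks. Its log2 ratios were 0.22, 0.38 and 0.55, again above 0 on every array. The mean was 0.39 ± 0.17 (SD, n = 3), or 1.31-fold, with a 95% confidence interval from 0.21 to 0.57 and a limma adjusted p = 0.0271. The older-mother pools were at 11.19, 11.14 and 11.25 normalized log2 signal and the young-mother pools at 10.96, 10.76 and 10.69, with no overlap. Only 1.35% of all genes had a higher mean ratio than Cyp51, and 1.80% a higher one than Idi1.

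Both calls held without replicate 1 (limma adjusted p = 0.0299 for Cyp51 and 0.0340 for Idi1) and ended without either of the other arrays. Without replicate 2 the log2 ratios were 0.42 for Cyp51 and 0.39 for Idi1, with limma adjusted p = 0.0630 and 0.0820. Without replicate 3 they were 0.39 and 0.30 (limma adjusted p = 0.0634 and 0.0703). From Agilent's own processed signals the ratios were 0.58 and 0.37, and neither passed (limma adjusted p = 0.0541 and 0.0699). In the authors' deposited table, refitted in the same way, they were 0.41 and 0.36, and both passed (limma adjusted p = 0.0230 and 0.0309), where 6.40% of genes were higher. When arrays were centred on their median in place of the intensity-dependent loess curve, the median of all genes moved to -0.43. Cyp51 was then at 0.17 and Idi1 at -0.23, or 0.60 and 0.20 relative to that median, so Cyp51 was called higher and Idi1 lower (limma adjusted p = 0.0419 and 0.0131).

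**Figure D2:**
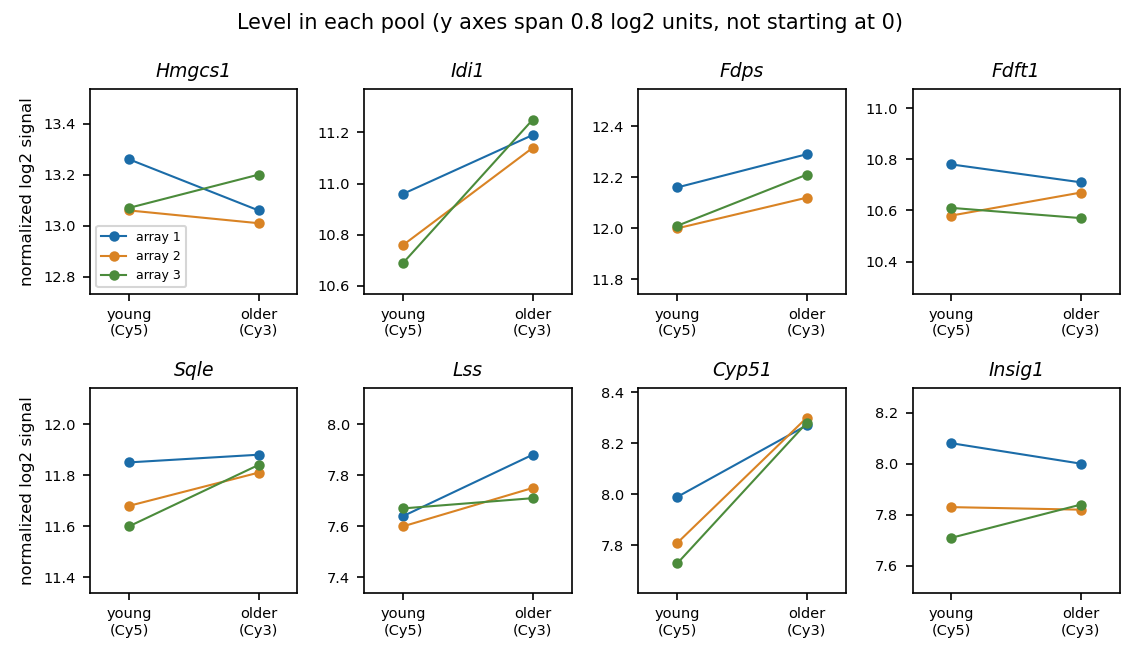
Normalized log2 signal (vertical axis, each panel spanning the same number of log2 units) in the young-mother pools (Cy5, left) and the older-mother pools (Cy3, right), with a line for each array. For Idi1, Cyp51 and Lss every older-mother pool lies above every young-mother pool.

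The enzymes at the squalene steps and Fdps did not pass. Fdps encodes farnesyl diphosphate synthase, which joins the isoprenoid units. Its log2 ratios were 0.13, 0.12 and 0.20, all above 0 and close together, with a mean of 0.15 ± 0.04 (SD, n = 3) and a limma adjusted p = 0.0701. With no background correction the mean was the same and the limma adjusted p = 0.0460. Its pools overlapped: the lowest older-mother pool was at 12.12 and the highest young-mother pool at 12.16. Lss encodes lanosterol synthase, which closes the sterol rings. Its log2 ratios were 0.24, 0.15 and 0.04, with a mean of 0.15 ± 0.10 (SD, n = 3) and a limma adjusted p = 0.115. Lss was the third member whose pools did not overlap, with a smallest gap of 0.04, and 16.7% of all genes have all older-mother pools above all young-mother pools. Unlike Cyp51 and Idi1, Lss was highest on array 1 and lowest on array 3. Sqle encodes squalene epoxidase, a rate-limiting enzyme of the later pathway. It was at 0.03, 0.13 and 0.24, a mean of 0.13 ± 0.11 (SD, n = 3) with a 95% confidence interval from -0.01 to 0.28 and a limma adjusted p = 0.141.

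The other 3 members had means near 0. Hmgcs1 encodes HMG-CoA synthase, an early enzyme of the mevalonate pathway. Its log2 ratios were -0.19, -0.05 and 0.14, with a mean of -0.04 ± 0.17 (SD, n = 3) and a 95% confidence interval from -0.22 to 0.14 (limma adjusted p = 0.740). Array 3 was the only one above 0. Fdft1 encodes squalene synthase, the first step committed to sterols. It was at -0.07, 0.09 and -0.04, with a mean of 0.00 ± 0.09 (SD, n = 3) and an interval from -0.13 to 0.13 (limma adjusted p = 0.967). Insig1 encodes an anchor that holds SCAP back when sterols are plentiful, and is itself a target of SREBP2. It was at -0.08, 0.00 and 0.13, with a mean of 0.01 ± 0.10 (SD, n = 3) and an interval from -0.13 to 0.15 (limma adjusted p = 0.866). The upper bounds of these 3 moderated intervals lie below the lower bounds of Idi1 and Cyp51, but the difference between genes was not tested. That holds for the brightest probes only. The interval of a dimmer Hmgcs1 probe, described next, ran from -0.05 to 0.27, past the lower bound of Idi1.

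Hmgcs1 and Fdft1 each had a second, dimmer probe, which did not pass either. The second Hmgcs1 probe gave 0.26, 0.09 and -0.01 (mean 0.11 ± 0.14, SD, n = 3, limma adjusted p = 0.253). It was well above background in 2 of 3 older-mother pools. The second Fdft1 probe gave -0.03, -0.29 and -0.20 (mean -0.18 ± 0.13, SD, n = 3, limma adjusted p = 0.101), and was well above background in 1 of 3 older-mother pools. Both second probes passed the filter only through the young-mother pools, so the filter favoured a lower ratio. The negative Fdft1 values are therefore no sign of a fall. By the array files (build mm9), Idi1 was read at chr13:8891524-8891583, Cyp51 at chr5:4081471-4081530, Insig1 at chr5:28404246-28404305, Fdps at chr3:88897549-88897608, Lss at chr10:76015992-76016051 and Sqle at chr15:59162688-59162747. The brighter Fdft1 probe is placed across 4241 bases, from 63765750 to 63769990 on chromosome 14, so its 60 bases are split in the genome. The exons around the probes were not analysed here.

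The ratios of several members followed the same arrays. For 5 of 8 members the ratio was lowest on array 1 and highest on array 3, namely Hmgcs1, Idi1, Cyp51, Sqle and Insig1, and this holds for 23.0% of all genes. The same order was seen for 11 of 14 other enzymes of cholesterol synthesis. It was seen for 6 of 12 genes of fatty acid synthesis and 4 of 9 of the non-sterol branches. Lower shares were 4 of 11 genes of SREBP processing, 3 of 10 of sterol uptake and 2 of 11 of LXR signalling. Among markers it was seen for 0 of 8 (oligodendrocyte), 1 of 8 (astrocyte) and 6 of 8 (neuron). Other markers showed it for 2 of 5 (endothelial), 2 of 6 (microglia) and 0 of 8 (choroid plexus). Hippocampal neuron and leptomeningeal fibroblast markers each showed it for 2 of 7. This order was looked at after the values were seen. In the separate signals the young-mother pools spread more widely than the older-mother pools for 5 of 8 members, beside 39.4% of all genes. The spreads of both groups were equal as rounded for Hmgcs1 (0.20) and Fdps (0.17). For Sqle the young-mother pools were at 11.85, 11.68 and 11.60 and the older-mother pools at 11.88, 11.81 and 11.84. These signals also carry differences between arrays, and the share of dye, array and pool in them cannot be told apart.

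Promoters of the 3 called enzymes of cholesterol synthesis, Idi1, Cyp51 and Msmo1, are printed to show what sterol-responsive sequence they hold, beside that of Hmgcs1, which did not pass. Other called genes of the sterol and fatty acid lists are not printed. They are RefSeq windows (GRCm38.p6) of 250 bases before to 50 bases after the annotated start, and 5 of 8 members had one. Capitals mark matches, on either strand, to the sterol regulatory element TCACNCCAC with at most 1 mismatch and to the NF-Y site CCAAT. NF-Y is a factor that binds next to SREBP.
Idi1, chr13:8885356-8885655, + strand: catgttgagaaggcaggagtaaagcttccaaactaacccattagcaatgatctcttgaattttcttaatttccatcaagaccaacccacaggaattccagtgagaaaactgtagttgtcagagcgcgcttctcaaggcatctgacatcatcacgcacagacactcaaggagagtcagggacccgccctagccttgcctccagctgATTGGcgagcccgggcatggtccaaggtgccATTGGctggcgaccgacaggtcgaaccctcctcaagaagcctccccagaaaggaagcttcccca
Cyp51, chr5:4104648-4104947, - strand: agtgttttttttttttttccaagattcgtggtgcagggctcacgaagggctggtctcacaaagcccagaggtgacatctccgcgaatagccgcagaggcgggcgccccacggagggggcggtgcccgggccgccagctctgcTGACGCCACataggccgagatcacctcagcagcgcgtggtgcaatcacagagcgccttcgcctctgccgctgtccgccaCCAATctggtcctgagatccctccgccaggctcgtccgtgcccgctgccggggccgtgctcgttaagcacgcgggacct
Msmo1, chr8:64733529-64733828, - strand: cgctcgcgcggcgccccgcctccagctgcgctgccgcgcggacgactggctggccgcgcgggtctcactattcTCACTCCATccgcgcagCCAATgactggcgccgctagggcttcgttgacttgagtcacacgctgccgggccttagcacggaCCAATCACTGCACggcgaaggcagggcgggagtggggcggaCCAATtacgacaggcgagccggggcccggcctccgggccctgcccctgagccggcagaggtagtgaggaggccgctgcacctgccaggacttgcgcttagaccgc
Hmgcs1, chr13:119690101-119690400, + strand: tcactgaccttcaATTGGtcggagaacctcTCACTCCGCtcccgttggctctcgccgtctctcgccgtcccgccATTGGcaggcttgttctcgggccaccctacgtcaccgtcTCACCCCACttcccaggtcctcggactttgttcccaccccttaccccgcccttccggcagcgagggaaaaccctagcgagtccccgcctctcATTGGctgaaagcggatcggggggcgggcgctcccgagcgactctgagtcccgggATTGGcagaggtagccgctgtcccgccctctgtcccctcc
Hmgcs1 was the only one of the 5 members with an exact match to TCACNCCAC, from -137 to -129, a motif held by 1.24% of 32851 promoter windows. With 1 mismatch allowed, 3 of 5 members had a match (Hmgcs1, Cyp51 and Insig1), beside 24.2% of all windows. Cyp51 had it from -108 to -100 and Insig1 from -9 to -1 on the other strand. Idi1 and Lss held none in these windows. CCAAT was found in all 5, beside 37.4% of all windows, and the Sp1 site GGGCGG in all 5, beside 35.7%. In Msmo1, described next, 2 matches with 1 mismatch lie from -177 to -169 and from -92 to -84, and the second shares a base with a CCAAT. These are matches of letters only, and no binding was measured.

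Of the 14 other enzymes of cholesterol synthesis, 1 rose, 0 fell and 13 did not pass, with a median of 0.03 and array medians of -0.05, 0.02 and 0.13. The shares over all genes were 7.34% higher and 12.2% lower. Msmo1, the sterol C4-methyl oxidase that acts shortly after CYP51, was at 0.18, 0.37 and 0.44, above 0 on every array. Its mean was 0.33 ± 0.13 (SD, n = 3), with a limma adjusted p = 0.0282. The older-mother pools were at 13.14, 13.07 and 13.07 and the young-mother pools at 12.96, 12.70 and 12.63, with no overlap. Without replicate 2 its limma adjusted p = 0.109, without replicate 3 it was 0.0856 and from Agilent's processed signals 0.0774. Under median centring Msmo1 was at -0.37, or 0.05 relative to all genes. A second Pmvk probe, well above background in all pools, was higher at 0.22 ± 0.03 (SD, n = 3, limma adjusted p = 0.0309), while its brightest probe did not pass. Dhcr7, a reductase of the last steps, was at 0.07, -0.17 and 0.33, with a mean of 0.08 ± 0.25 (SD, n = 3, limma adjusted p = 0.587).

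Of 11 genes of SREBP processing and sterol sensing, 0 rose, 3 fell and 8 did not pass, with a median of -0.03. Among all genes 7.34% rose and 12.2% fell. Srebf2, which encodes SREBP2 itself, was at -0.08, -0.03 and -0.14, a mean of -0.08 ± 0.06 (SD, n = 3, limma adjusted p = 0.234). Scap was at -0.03 ± 0.04 and Srebf1, the gene of SREBP1, at 0.16 ± 0.25 (SD, n = 3; limma adjusted p = 0.667 and 0.285). Insig2, the other SCAP anchor, fell, with -0.25, -0.24 and -0.29 (mean -0.26 ± 0.03, SD, n = 3, limma adjusted p = 0.0226). Its second probe pointed the other way, at 0.31, 0.16 and 0.07 (mean 0.18 ± 0.12, SD, n = 3, limma adjusted p = 0.0901), and the mean over both probes was -0.04 (limma adjusted p = 0.557). Mbtps2, the second protease that frees SREBP, was at -0.24 ± 0.06, and Rnf139, a ubiquitin ligase of the endoplasmic reticulum, at -0.26 ± 0.08 (SD, n = 3; limma adjusted p = 0.0298 and 0.0282). Both fell by that test, but the second Mbtps2 probe was at 0.05 ± 0.14 (SD, n = 3) and well above background in 1 of 3 older-mother pools, and the mean over both was -0.09 (limma adjusted p = 0.188). Without replicate 2 the limma adjusted p of Insig2, Mbtps2 and Rnf139 was 0.109, 0.129 and 0.129. Without replicate 3 it was 0.0736, 0.0765 and 0.0631, and without replicate 1 Mbtps2 and Rnf139 were at 0.0653 and 0.0627. With Agilent's processed signals all 3 calls ended (limma adjusted p = 0.0570, 0.0724 and 0.0757). The brightest Mbtps1 probe did not pass, at 0.02 ± 0.06 (SD, n = 3, limma adjusted p = 0.806). A second, dimmer Mbtps1 probe was lower, at -0.27 ± 0.06 (SD, n = 3, limma adjusted p = 0.0249). It was well above background in 0 of 3 older-mother pools. It passed the filter only through the young-mother pools, so the filter favoured a lower ratio and the call is no sign of a fall.

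Of 10 genes of sterol uptake and transport, 0 rose and 0 fell by their brightest probe. Their median was -0.04, and their means ran from -0.09 to 0.11 on the log2 scale. Over all genes the shares were 7.34% higher and 12.2% lower. Second probes differed for 2 of the 10 genes. One for Scarb1, well above background in all pools, was higher (0.21 ± 0.09, SD, n = 3, limma adjusted p = 0.0476). One for Lrp1, well above background in 0 of 3 older-mother pools, was lower (-0.40 ± 0.12, SD, n = 3, limma adjusted p = 0.0195). The Lrp1 probe passed the filter only through the young-mother pools, so the filter favoured a lower ratio and the call is no sign of a fall. Of the 9 genes of the non-sterol branches, which lead to dolichol, ubiquinone and prenyl groups, 0 passed in either direction by their brightest probe. Of 2 dimmer Ggps1 probes 1, well above background in all pools, was lower at -0.28 ± 0.10 (SD, n = 3, limma adjusted p = 0.0301).

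Among 11 measured genes of LXR signalling, sterol efflux and turnover, 2 rose, 2 fell and 7 did not pass. The shares over all genes were 7.34% higher and 12.2% lower. Cyp27a1 was not above background. Ch25h, which makes 25-hydroxycholesterol, an oxysterol that binds INSIG and blocks SREBP2 processing, had the mean furthest from 0 in the sterol and fatty acid lists. It was at 0.79, 1.17 and 1.13, with a mean of 1.03 ± 0.21 (SD, n = 3) and a limma adjusted p = 0.0129. The older-mother pools were at 7.68, 7.65 and 7.58 normalized log2 signal and the young-mother pools at 6.90, 6.49 and 6.45, with no overlap. The Ch25h probe was well above background in all pools but dim in the young-mother ones. There the second, dimmer Hmgcs1 probe was at 6.54, 6.49 and 6.55. From Agilent's processed signals its mean was 2.02 (limma adjusted p = 0.0372). Under median centring it stayed above 0, at 1.12, and without replicate 3 the limma adjusted p = 0.0515. Abcg1, a sterol exporter, was at 0.19 ± 0.05, Apoe, the lipid carrier that astrocytes secrete, at -0.22 ± 0.09, and Cyp46a1, the neuronal cholesterol 24-hydroxylase, at -0.23 ± 0.09 (SD, n = 3; limma adjusted p = 0.0433, 0.0435 and 0.0421). All 3 calls ended without any 1 of the replicates: limma adjusted p was 0.0958, 0.201 and 0.0918 for Abcg1, 0.0509, 0.240 and 0.118 for Apoe and 0.0707, 0.129 and 0.123 for Cyp46a1. They also ended with a normexp offset of 16 (0.0617, 0.0613 and 0.0636 for Abcg1, Apoe and Cyp46a1) and with Agilent's processed signals (0.0573, 0.173 and 0.0896), and Abcg1 also in the deposited table (0.0582) and with no filter on dim probes (0.0529). Under median centring Abcg1 was at -0.42, or 0.00 relative to all genes.

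Of 12 genes of fatty acid synthesis, which SREBP1 drives, 1 rose, 0 fell and 11 did not pass. Among all genes 7.34% rose and 12.2% fell. Elovl6, a fatty acid elongase, was at 0.33, 0.38 and 0.40, with a mean of 0.37 ± 0.04 (SD, n = 3, limma adjusted p = 0.0159). The older-mother pools were at 10.91, 10.97 and 11.00 and the young-mother pools at 10.58, 10.59 and 10.60, with no overlap. Without replicates 2 and 3 in turn its limma adjusted p was 0.0601 and 0.0557, and under median centring it was at -0.23, or 0.19 relative to all genes. Fasn, the fatty acid synthase, was at 0.04 ± 0.05 (SD, n = 3, limma adjusted p = 0.567).

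**Figure D3:**
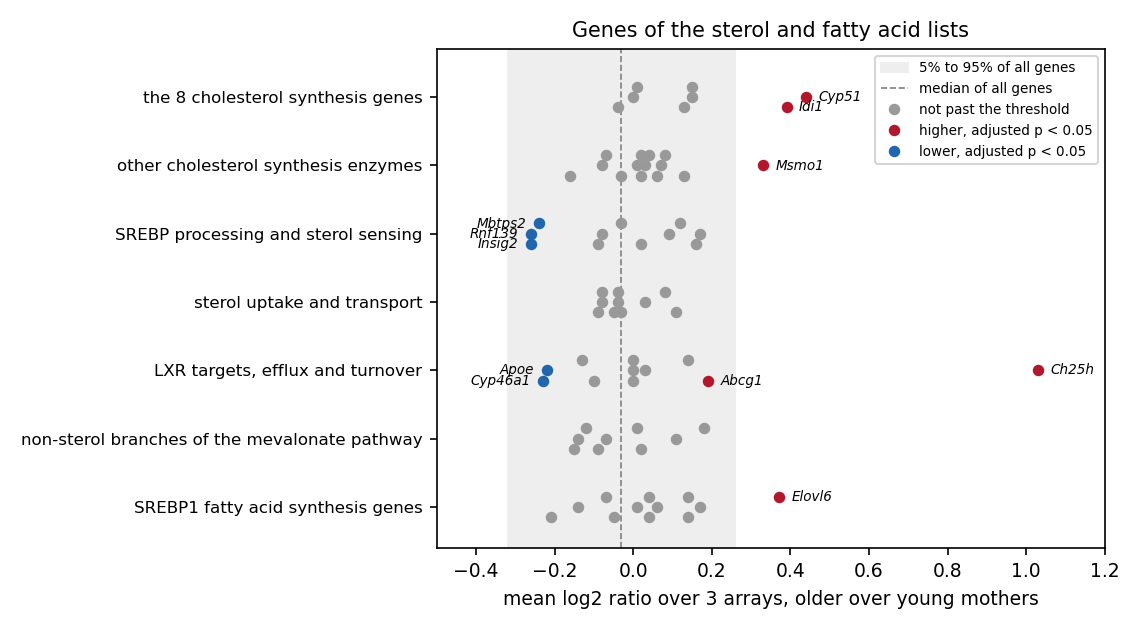
Mean log2 ratio over 3 arrays (horizontal axis) of each measured gene of the sterol and fatty acid lists, with genes past a limma adjusted p of 0.05 in colour and named. Ch25h, at 1.03, lies furthest right, and most other genes lie within the range that holds all but the outer 5% of genes on each side.

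**Figure D4:**
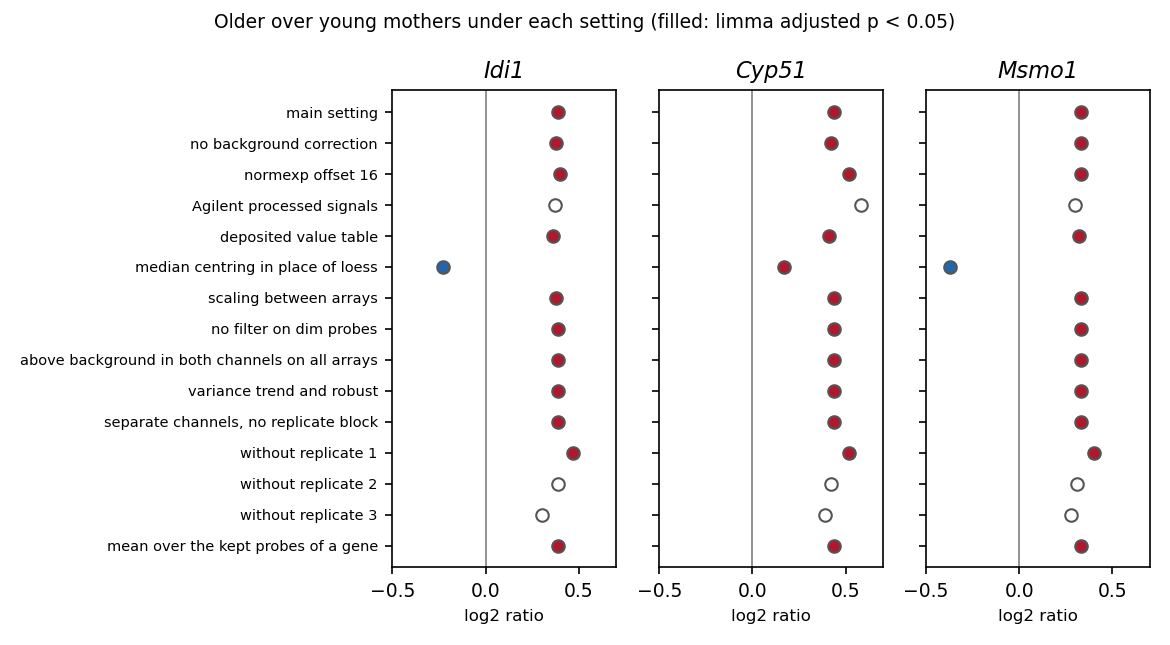
Log2 ratio, older over young (horizontal axis), for Idi1, Cyp51 and Msmo1 under each processing setting. Filled points passed a limma adjusted p of 0.05, red above and blue below 0, and open points did not. Under median centring Idi1 and Msmo1 are at -0.23 and -0.37.

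The cell types that make most brain cholesterol were measured on the same arrays. By the same test 7.34% of all genes rose and 12.2% fell. Of 8 oligodendrocyte markers 1 rose (Ermn, at 0.36 ± 0.07) and 0 fell, and their array medians were 0.30, -0.12 and 0.08. For 4 of these 8 markers the mean was below 0. Of 8 astrocyte markers 1 rose (Gfap, at 0.48 ± 0.12, SD, n = 3) and 0 fell, with array medians of -0.05, -0.02 and 0.04. For 5 of the 8 astrocyte markers the mean was below 0. Array medians of the 8 cholesterol genes were 0.08, 0.13 and 0.17. Of 8 neuron markers 1 rose and 2 fell, of 6 microglia markers 0 rose and 1 fell, and of 5 endothelial markers 1 rose and 2 fell. The part of cell makeup in the ratios was not tested.

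By distance over the 3 arrays, the genes outside all lists whose ratios lay nearest to the array medians of the 8 genes were Bet1l (distance 0.0116), Msl3 (0.0161), Pacc1 (0.0204) and Il17d (0.0205). Their means ran from 0.12 to 0.13, and none passed the limma test (adjusted p from 0.0936 to 0.106). Over 3 arrays such likeness is a description only.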

How the data were processed

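Hippocampal RNA of 3 older-mother and 3 young-mother pools was compared on 3 two-colour Agilent arrays. Per the file headers, spot signals and local backgrounds are intensity values from Agilent Feature Extraction 10.10.1.1, processed signals are intensity values corrected for background and dye with LOWESS, flags are of another (other) kind, 0 or 1, and positions are in mm9. The authors' deposited table gives log2 Cy3/Cy5 (column medians -0.01). The authors' steps are not stated, but normexp and loess on median signals gave the same values (largest difference 5.0e-10), which settles scale and direction.

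Mean signals were corrected with normexp (offset 50), with loess (span 0.3) within arrays, control and outlier spots at weight 0, and spots of a probe averaged (limma 3.58.1, R 4.3.3, jsonlite 2.0.0). Kept were 27631 of 39429 probes, well above background in 1 channel on all 3 arrays. The offset pulls dim ratios towards 0. The mean over arrays was fitted with lmFit and eBayes (residual degrees of freedom 2, prior 3.42), with Benjamini-Hochberg adjustment over all kept probes. A gene is its brightest kept probe. Symbols came from RefSeq accessions for 28025 probes, otherwise from the files. The fit was tested on simulated data with independent noise and a dye effect that depended on intensity only. That test holds no dye effect of single genes, so it cannot separate dye from group. Separate signals are after Aquantile.

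The members and lists were chosen with earlier results of these data known. Named are all members, set regulators and enzymes (some are not reported here), and up to 4 called genes with the smallest p per list, plus the 4 nearest profiles; Fasn, Ermn, Gfap and genes with a called second probe were named after their values were seen. Alternatives were other background, dye and array corrections, filters, variance settings, separate channels, probe averaging and leaving out each replicate.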

Additional observations from a re-analysis of the deposited data

How the results depend on the processing

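Of 294 values of single named genes under the alternatives, 226 kept their sign and side of the threshold, 42 kept their sign and lost the call, 5 kept it and gained a call (4 of them under median centring, which moves the median of all genes to -0.43) and 21 turned sign. Of these 21, 10 were under median centring, where 8 passed the limma test as lower (Idi1 at -0.23, Sqle at -0.52, Insig1 at -0.20, Fdps at -0.52, Msmo1 at -0.37, Dhcr7 at -0.41, Abcg1 at -0.42 and Elovl6 at -0.23) and Lss (-0.01) and Srebf1 (-0.09) did not. The other 11 were genes with means near 0 that passed in neither setting. Hmgcs1 was at 0.04 without replicate 1 (from -0.12 to 0.04 leaving out each replicate) and as the mean over its probes. Insig1 was at -0.06 with no background correction, -0.11 with Agilent's processed signals, 0.00 in the deposited table and -0.04 without replicate 3 (from -0.04 to 0.06 leaving out each). Fdft1 was at 0.00 with a normexp offset of 16 and in the deposited table, 0.03 without replicate 1 and 0.01 without replicate 3 (from -0.05 to 0.03 leaving out each), and Dhcr7 was at -0.05 without replicate 3 (from -0.05 to 0.20 leaving out each). Under median centring the median of the 8 cholesterol genes was -0.37, with 1 of them higher and 6 lower, and all probes gave 5685 higher and 17365 lower. With Agilent's processed signals 0 of the 8 were higher, and over all probes 1169 were higher and 1452 lower by limma, against 2189 and 2946 in the main setting. Leaving out each replicate gave from 0 to 2 of the 8 higher, from 29 to 1459 probes higher and from 0 to 1906 lower by limma; the lowest counts were without replicate 3, and at an unadjusted p under 0.05 the full set had 10672 probes. With the channels as separate samples and no replicate block, that is without the pairing of pools by array, 2 of the 8 were higher and their median was 0.14. The cause of these differences was not tested. Fewer arrays also leave fewer degrees of freedom, and the part of this was not tested. Signal over background limits the second probes of Hmgcs1 and Fdft1, and no group had enough samples for a check of single outlying pools.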
